A study of Mus musculus with 10 samples.

Results

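Fc receptors are the surface proteins through which immune cells bind the constant part of antibodies, and the genes described here are the mouse IgG receptors, their signalling chains and the kinase that those chains recruit. The members were the 7 listed genes Fcgr1, Fcgr2b, Fcgr3, Fcgr4, Fcer1g, Tyrobp and Syk, found by symbol among 45706 genes in the deposited table. All 7 were found, and all 7 passed the filter on low values in both cell types. Spleen cells of mice were profiled by RNA sequencing in 4 groups. The first was T cells of Cd47ΔT mice, which lack Cd47 in T cells as the name of the genotype has it (n = 2 libraries), and the second T cells of Cd47f/f mice, whose floxed Cd47 is intact (n = 2). The others were cDC2s (conventional dendritic cells of type 2, which take up and present antigen) of Cd47ΔT mice (n = 3) and of Cd47f/f mice (n = 3). The floxed allele underlies both genotypes by their names. The Cre line behind the deletion, the deleted exons, the ages and sexes of the mice and the way the cells were isolated are not stated in the sources used here. The labels do not tie replicates to individual mice, and p-values thus cover the spread among these libraries alone, which may be technical.

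FcγRI, FcγRIII and FcγRIV, encoded by Fcgr1, Fcgr3 and Fcgr4, are activating receptors that need the FcRγ chain, encoded by Fcer1g, to reach the surface and to signal. FCER1G and TYROBP (also called DAP12) carry an immunoreceptor tyrosine-based activation motif (ITAM), a stretch with a pair of tyrosines that Src-family kinases phosphorylate and to which the kinase SYK then binds. FcγRIIB, encoded by Fcgr2b, is the inhibitory IgG receptor, and its tail holds an inhibitory motif (ITIM) that recruits the phosphatase SHIP1. In spleen these receptors are known from macrophages, monocytes, dendritic cells, NK cells and B cells, where they drive uptake and killing of antibody-coated cells. CD47 on a target cell binds SIRP alpha on the phagocyte and restrains that uptake.

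The stretches of coding sequence below are shown because they set the activating adaptors apart from the inhibitory receptor. They were read from GRCm38 with the GENCODE M21 annotation and run 5′ to 3′ on the coding strand. The Fcer1g ITAM lies on the minus strand of chromosome 1 across exons 4 and 5 of 5 (chr1:171229889-171230072, codons 65 to 79, the span holding an intron). The Tyrobp ITAM lies on the plus strand of chromosome 7 across exons 4 and 5 of 5 (chr7:30415670-30417382, codons 92 to 106, also with an intron). The Fcgr2b ITIM lies on the minus strand of chromosome 1 in exon 8 of 8 (chr1:170961071-170961088, codons 317 to 322). Capitals mark the tyrosine and leucine codons of each ITAM and the tyrosine codon of the ITIM.
Fcer1g ITAM: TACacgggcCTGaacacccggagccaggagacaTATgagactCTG
Tyrobp ITAM: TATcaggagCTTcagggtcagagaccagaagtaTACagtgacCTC
Fcgr2b ITIM: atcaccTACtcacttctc
Each adaptor held 1 ITAM match of 15 codons, with 7 codons between its parts, and no ITAM match was found in the coding sequence of Fcgr1, Fcgr2b, Fcgr3, Fcgr4 or Syk. The shorter ITIM pattern is loose and also matched 3 times in Fcgr1 and once each in Fcgr4, Fcer1g and Tyrobp.

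Promoter windows of 300 bases, from 250 before to 50 after each annotated start, were taken from RefSeq on GRCm38.p6 and were held for 6 of the members. The core letters bound by the myeloid factor PU.1, GAGGAA on either strand, were found in 5 of the 8 windows of these members and in 28.3% of all 32851 windows. The 5 were those of Fcgr1 and Fcgr4, the 2 of Fcgr3 and 1 of the 2 of Syk. The Fcgr3 windows overlap and hold the same match, so it is counted in both, and by member 4 of 6 had a match. The 28.3% counts windows and not genes, so it is no yardstick for the count by member. The windows of Fcgr1 and Fcgr4 are printed because these activating receptors had higher values in Cd47ΔT T cells and log2 fold changes of opposite sign in cDC2s. Both passed the T cell filter on low values only through the Cd47ΔT libraries, and neither was called in cDC2s. The choice is thus for display and no support for a difference. Capitals mark the match, which in both is the reverse complement TTCCTC, beginning 55 bases before the start of Fcgr1 (chr3:96293920-96294219, minus strand) and 22 bases before that of Fcgr4 (chr1:171018676-171018975, plus strand).
Fcgr1 promoter: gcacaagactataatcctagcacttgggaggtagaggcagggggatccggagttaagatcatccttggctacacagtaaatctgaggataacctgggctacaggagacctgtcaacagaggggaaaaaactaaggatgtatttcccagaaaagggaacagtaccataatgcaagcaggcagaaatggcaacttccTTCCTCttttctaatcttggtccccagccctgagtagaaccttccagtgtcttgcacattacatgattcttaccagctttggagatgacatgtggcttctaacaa
Fcgr4 promoter: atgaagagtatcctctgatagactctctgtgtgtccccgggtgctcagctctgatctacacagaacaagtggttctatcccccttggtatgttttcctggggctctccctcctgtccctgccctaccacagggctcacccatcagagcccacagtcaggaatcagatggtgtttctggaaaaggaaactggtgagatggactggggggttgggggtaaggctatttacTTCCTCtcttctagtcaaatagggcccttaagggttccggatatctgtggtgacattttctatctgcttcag
A match is a run of letters and not a measured binding site.

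Values are TPM, transcript abundances per length that are scaled to the same total in each library. TPM hold no record of depth, which is therefore unknown. T cell libraries had 11514 to 12594 genes at 1 TPM or more, and cDC2 libraries had 11852 to 12146. Cd47 stood at 40.4 and 51.7 TPM in T cells of Cd47ΔT mice, against 138 and 233 TPM in T cells of Cd47f/f mice, a log2 fold change of -1.95 ± 0.26 (SE; limma adjusted p = 0.0112). In cDC2s, Cd47 ran from 135 to 159 TPM in Cd47ΔT mice and from 140 to 162 TPM in Cd47f/f mice. The T cell markers Cd3d, Cd3e and Cd3g were each at 414 TPM or more in every T cell library and under 1 TPM in every cDC2 library. Of the cDC2 libraries, Cd47f/f library 3 had the fewest genes above 0 TPM (14172), followed by Cd47ΔT library 1 (14578). Values that rest on Cd47f/f library 3 are also given without it.

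Transcripts of both ITAM adaptors and of Syk rose in T cells of Cd47ΔT mice. Tyrobp, the adaptor of TREM, SIRP beta and several NK receptors, stood at 122 and 202 TPM in Cd47ΔT T cells, against 14.8 and 19.2 TPM in Cd47f/f T cells. The lower Cd47ΔT library was over the higher Cd47f/f library by a wide margin, and the log2 fold change was 3.15 ± 0.26 (SE; limma adjusted p = 0.00352). Fcer1g, the chain shared by the activating IgG receptors and the IgE receptor, stood at 61.0 and 102.6 TPM in Cd47ΔT T cells, against 6.33 and 12.1 TPM in Cd47f/f T cells. Its groups did not overlap either, and its log2 fold change was 3.03 ± 0.35 (SE; limma adjusted p = 0.00784). Syk, the kinase that docks on the phosphorylated ITAM, stood at 6.08 and 13.5 TPM in Cd47ΔT T cells, against 0.52 and 1.12 TPM in Cd47f/f T cells. The Cd47ΔT mean was 11.9 times the Cd47f/f mean, and the log2 fold change was 2.50 ± 0.38 (SE; limma adjusted p = 0.0155). Syk passed the filter, 1 TPM in 2 libraries, only through the Cd47ΔT libraries, so its adjusted p is no support for a difference. In all 3 genes Cd47ΔT library 2 was the higher of its pair, and in all 3 Cd47f/f library 1 was the lowest of the 4 T cell libraries.

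The IgG receptors were lower in level than the adaptors. In T cells of Cd47ΔT mice 3 of the 4 were called higher, beside 8.5% of all genes tested. Fcgr1, Fcgr2b and Fcgr4 passed the filter, 1 TPM in 2 libraries, only through the Cd47ΔT libraries. Their adjusted p is thus no support for a difference. Fcgr4, which binds mouse IgG2a and IgG2b, stood at 7.39 and 9.35 TPM in Cd47ΔT T cells, against 0.47 and 0.76 TPM in Cd47f/f T cells. Its Cd47ΔT mean was 13.6 times the Cd47f/f mean, more than for any other member, and the log2 fold change was 2.53 ± 0.24 (SE; limma adjusted p = 0.00475). Fcgr3, the low-affinity activating receptor of myeloid and NK cells, stood at 11.7 and 22.2 TPM in Cd47ΔT T cells, against 2.98 and 4.77 TPM in Cd47f/f T cells. It had the highest level of the 4 receptors in every T cell library, and its log2 fold change was 1.84 ± 0.35 (SE; limma adjusted p = 0.0267). Fcgr1, the high-affinity receptor of monocytes and macrophages, stood at 1.72 and 2.71 TPM in Cd47ΔT T cells, against 0.28 and 0.21 TPM in Cd47f/f T cells. The log2 fold change of Fcgr1 was 1.35 ± 0.25 (SE; limma adjusted p = 0.0270), which on the log2(TPM + 1) scale understates the change of a gene this low (it was 2.72 with a pseudocount of 0.1 and 0.46 with 5). Fcgr2b, the inhibitory receptor, stood at 4.93 and 9.85 TPM in Cd47ΔT T cells, against 0.37 and 2.29 TPM in Cd47f/f T cells. Its groups did not overlap, but its control libraries lay far apart and it did not pass the test (log2 fold change 1.92 ± 0.48, SE; limma adjusted p = 0.0633).

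**Figure D1:**
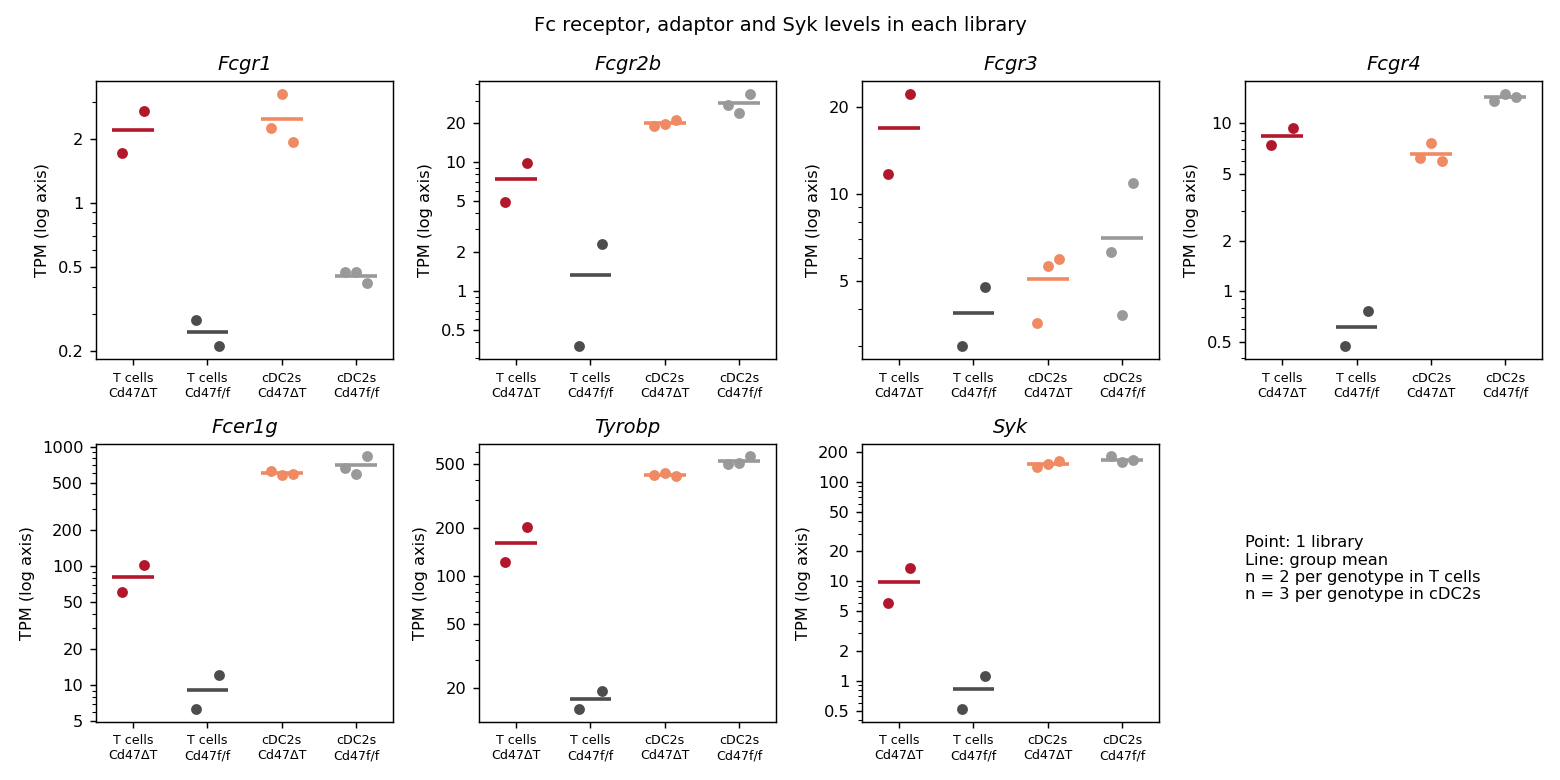
TPM of each gene in each library on a log axis, with 1 point per library and a line at the group mean; T cells (n = 2 per genotype) are on the left and cDC2s (n = 3 per genotype) on the right of each panel. In T cells every Cd47ΔT point lies above every Cd47f/f point for all 7 genes, while in cDC2s this holds for Fcgr1 only.

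In T cells, then, 6 of the 7 members were called higher and none lower, beside 9.37% of all 12453 genes tested that were called, 8.5% higher and 0.875% lower. All 7 were without overlap and higher in Cd47ΔT, which was also true of 37% of the genes tested. The median log2 fold change of the members was 2.50, beside 0.10 over all genes tested. Fcgr1, Fcgr2b, Fcgr4 and Syk (4 of 7) passed the filter, 1 TPM in 2 libraries, only through the Cd47ΔT libraries, since fewer than 2 Cd47f/f libraries reached it, so these counts describe the members and are no support for a difference. The same held for 1216 of all genes tested. With no filter on low values none of the members was called (adjusted p from 0.0689 to 0.207), and 15 genes were called in all. Without Cd47f/f library 1 the calls of Fcgr1, Fcgr3 and Syk were lost and 3 members were called. The call of Fcgr1 was also lost without Cd47f/f library 2 (adjusted p = 0.0707) and that of Fcgr3 without Cd47ΔT library 2 (adjusted p = 0.0514).

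Genes that mark other spleen cells were higher in the same T cell libraries. The counts without overlap are to be read beside all genes tested in T cells, of which 37% were higher and 11.9% lower without overlap. The 12 red pulp macrophage markers summed to between 193 and 303 TPM in Cd47ΔT T cells and between 26.4 and 33.8 TPM in Cd47f/f T cells, and 12 of 12 were higher without overlap. The 9 NK cell markers summed to between 247 and 388 TPM in Cd47ΔT T cells and between 82.4 and 117 TPM in Cd47f/f T cells, and 9 of 9 were higher without overlap. Prf1 and Eomes, already present in control T cells, made up most of the Cd47f/f sum. Prf1 stood at 48.41 and 57.89 TPM in Cd47ΔT T cells, against 35.95 and 45.64 TPM in Cd47f/f T cells. Eomes stood at 58.93 and 55.99 TPM in Cd47ΔT T cells, against 27.98 and 42.81 TPM in Cd47f/f T cells. Without Gzma, the sum was 167 to 227 TPM in Cd47ΔT T cells and 70.3 to 98.75 TPM in Cd47f/f T cells. The part of NK cells in it was not tested. The 11 monocyte markers summed to between 1849 and 1927 TPM in Cd47ΔT T cells and between 637 and 803 TPM in Cd47f/f T cells, again with 11 of 11 higher. Ly6c2 alone, already high in control T cells, made up 1707 and 1738 TPM in Cd47ΔT T cells, against 595 and 738 TPM in Cd47f/f T cells, and the other 10 summed to between 143 and 189 TPM in Cd47ΔT T cells and between 41.5 and 64.9 TPM in Cd47f/f T cells. The 11 neutrophil markers summed to between 28.6 and 93.1 TPM in Cd47ΔT T cells and between 2.31 and 5.76 TPM in Cd47f/f T cells, with 9 of 11 higher. The 12 B cell markers summed to between 71.5 and 161 TPM in Cd47ΔT T cells and between 18.0 and 22.6 TPM in Cd47f/f T cells, with 12 of 12 higher. The 13 cDC2 markers summed to between 305 and 367 TPM in Cd47ΔT T cells and between 157 and 184 TPM in Cd47f/f T cells, with 13 of 13 higher. Without Cd7, which made up most of it, this sum was between 58.6 and 86.6 TPM in Cd47ΔT T cells and between 12.9 and 18.7 TPM in Cd47f/f T cells.

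The remaining lists went partly the same way, beside the same 37% higher and 11.9% lower without overlap among all genes tested. All 8 cDC1, 7 plasma cell, 8 basophil or mast cell and 7 erythroid markers were higher without overlap, as were 6 of 8 plasmacytoid dendritic cell markers and 1 of 7 platelet markers. The other 2 plasmacytoid markers, among them the defining Ccr9, were lower without overlap. The defining platelet marker Pf4 was at 0 TPM in every library. The 11 T cell markers summed to between 7500 and 8133 TPM in Cd47ΔT T cells and between 8364 and 8425 TPM in Cd47f/f T cells, with 5 of 11 lower and 1 higher without overlap. Small non-coding RNAs took 0.245% and 0.456% of the TPM in Cd47ΔT T cells, against 0.124% and 0.160% in Cd47f/f T cells. The part of other cells in the members' values was not tested. With protein-coding scaling these RNAs are left out of the total, as are mitochondrial and immunoglobulin genes. With it 6 members were called in T cells, and the members' log2 fold changes ran from 1.45 (Fcgr1) to 3.12 (Tyrobp). In bulk samples more cells of a type and more RNA per cell cannot be told apart.

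**Figure D2:**
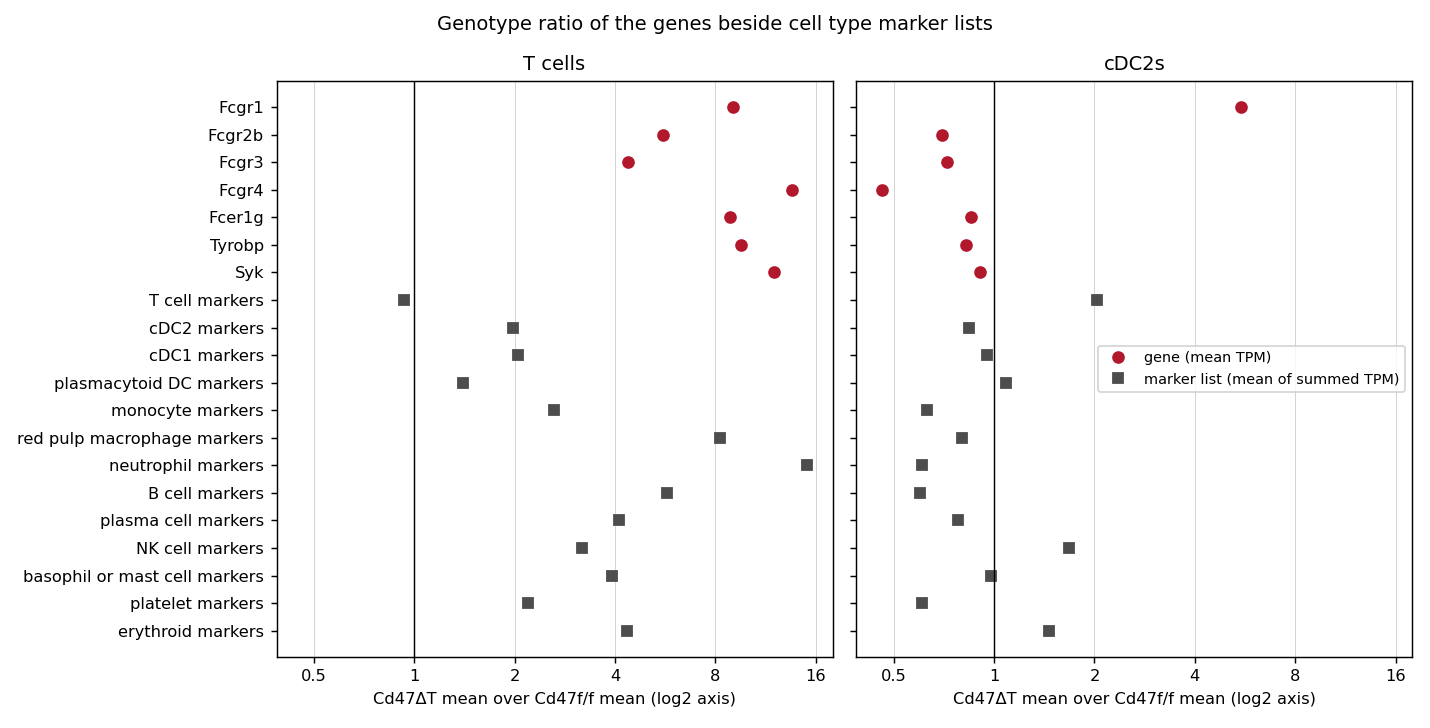
Mean level in Cd47ΔT libraries over mean level in Cd47f/f libraries on a log2 axis, for each member (circles, mean TPM) and for each cell type marker list (squares, mean of the summed TPM), with T cells on the left and cDC2s on the right; the black line marks equal levels. In T cells the members lie between 4.38 and 13.6, and the marker lists run from 0.931 for T cells to 15.1 for neutrophils.

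In cDC2s none of the 7 members passed the test, beside 0.63% of the 12058 genes tested that were called (76 genes, with 1618 at an unadjusted p under 0.05). The members' values split by direction there, with Fcgr1 higher and the other 6 lower in Cd47ΔT cDC2s. Fcgr1 stood at 2.26, 3.27 and 1.94 TPM in Cd47ΔT cDC2s, against 0.47, 0.47 and 0.42 TPM in Cd47f/f cDC2s. All 3 Cd47ΔT libraries lay above all 3 Cd47f/f libraries, with a mean ratio of 5.49 and a log2 fold change of 1.25 ± 0.30 (SE; limma adjusted p = 0.127). Fcgr1 passed the filter only through the Cd47ΔT libraries here too. Fcgr4 stood at 6.20, 7.59 and 5.92 TPM in Cd47ΔT cDC2s, against 13.5, 14.99 and 14.3 TPM in Cd47f/f cDC2s. Its groups did not overlap either, in the other direction, with a mean ratio of 0.461 and a log2 fold change of -1.02 ± 0.18 (SE; limma adjusted p = 0.0613). Fitted with all 10 libraries sharing 1 estimate of the spread, Fcgr1 (adjusted p = 0.0414) and Fcgr4 (adjusted p = 0.0309) were called. In the fit of cDC2s alone no member was called with any library left out.

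The inhibitory receptor Fcgr2b stood at 18.95, 19.8 and 21.3 TPM in Cd47ΔT cDC2s, against 27.8, 24.2 and 33.9 TPM in Cd47f/f cDC2s. The groups did not overlap, and the log2 fold change was -0.49 ± 0.16 (SE; limma adjusted p = 0.243). Tyrobp stood at 426, 443 and 423 TPM in Cd47ΔT cDC2s, against 500, 509 and 560 TPM in Cd47f/f cDC2s. It too was without overlap, with a log2 fold change of -0.28 ± 0.083 (SE; limma adjusted p = 0.211). Of the members, 3 were thus lower and 1 higher without overlap, beside 13.5% and 6.38% of all genes tested.

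Groups overlapped for the other 3 members in cDC2s. Fcer1g stood at 622, 576 and 596 TPM in Cd47ΔT cDC2s, against 671, 596 and 832 TPM in Cd47f/f cDC2s. Its 95% interval for the log2 fold change ran from -0.51 to 0.083. Syk stood at 142, 150 and 162 TPM in Cd47ΔT cDC2s, against 179, 156 and 165 TPM in Cd47f/f cDC2s, with an interval from -0.37 to 0.086. Fcgr3 stood at 3.60, 5.65 and 5.99 TPM in Cd47ΔT cDC2s, against 6.30, 3.84 and 10.95 TPM in Cd47f/f cDC2s. The highest value came from Cd47f/f library 3, and the Fcgr3 log2 fold change of -0.33 (interval from -1.16 to 0.50) became 0.0086 without it. Without that library Fcgr2b had a log2 fold change of -0.36 and Fcer1g of -0.080.

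In the cDC2 libraries the summed marker lists had Cd47ΔT over Cd47f/f ratios from 0.599 (B cells) to 2.03 (T cells), and 1 gene carried each of these ends. Tcf7 made up most of the T cell sum, at 125 to 179 TPM in Cd47ΔT cDC2s and 58.5 to 68.0 TPM in Cd47f/f cDC2s, and without it the ratio was 1.18. Cd22 made up most of the B cell sum, at 81.0 to 132 TPM in Cd47ΔT cDC2s and 180 to 239 TPM in Cd47f/f cDC2s, and without it the ratio was 0.981. The 13 cDC2 markers summed to between 1514 and 1616 TPM in Cd47ΔT cDC2s and between 1800 and 1963 TPM in Cd47f/f cDC2s, and 6 of 13 were lower without overlap. Among all genes tested in cDC2s, 13.5% were lower and 6.38% higher without overlap. The 11 monocyte markers summed to between 266 and 447 TPM in Cd47ΔT cDC2s and between 429 and 725 TPM in Cd47f/f cDC2s, with 1 of 11 higher and none lower without overlap. Nr4a1 led this sum, at 150 to 319 TPM in Cd47ΔT cDC2s and 283 to 567 TPM in Cd47f/f cDC2s. Without it the sum was between 108 and 142 TPM in Cd47ΔT cDC2s and between 127 and 158 TPM in Cd47f/f cDC2s, a ratio of 0.863. The 12 red pulp macrophage markers summed to between 159 and 265 TPM in Cd47ΔT cDC2s and between 209 and 341 TPM in Cd47f/f cDC2s. Small non-coding RNAs took between 21.8% and 25.2% of the TPM in Cd47ΔT cDC2s and between 16.1% and 21.3% in Cd47f/f cDC2s. Within each genotype 3 of 11 T cell, 5 of 9 NK cell and 7 of 11 neutrophil markers were at 0 TPM in every cDC2 library of that genotype. The defining Cd3g, Ncr1, S100a8, S100a9 and Retnlg were among them in both genotypes. The neutrophil genes at 0 were not all the same, with Mmp8 among them only in Cd47ΔT and Cxcr2 only in Cd47f/f cDC2s. Other markers of these lists were present, such as Klri2 at 26.4 to 30.4 TPM in Cd47ΔT cDC2s and 14.7 to 19.2 TPM in Cd47f/f cDC2s, and Mmp9 at 21.3 to 39.9 TPM in Cd47ΔT cDC2s and 44.4 to 67.6 TPM in Cd47f/f cDC2s. The 12 B cell markers summed to between 122 and 171 TPM in Cd47ΔT cDC2s and between 221 and 275 TPM in Cd47f/f cDC2s, with 2 higher and 1 lower without overlap. The part of these in the members' values was not tested.

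**Figure D3:**
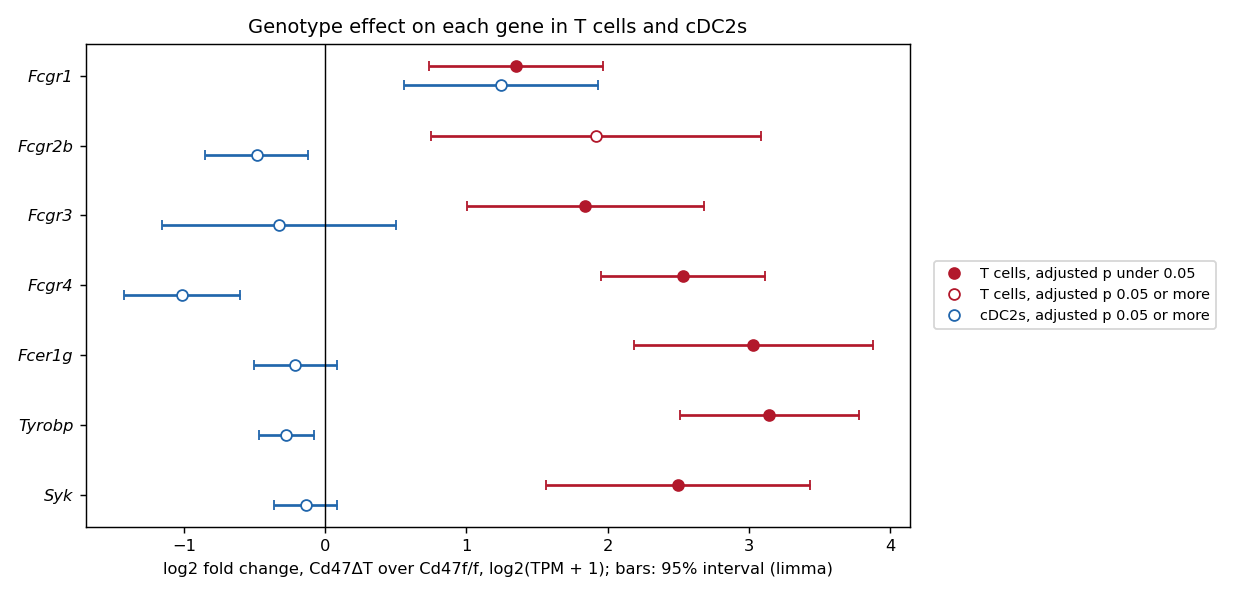
Log2 fold change of each gene on the log2(TPM + 1) scale, Cd47ΔT over Cd47f/f, in T cells (red) and cDC2s (blue), with 95% intervals from limma; filled points have an adjusted p under 0.05. All T cell estimates lie between 1.35 and 3.15, and the cDC2 estimates lie between -1.02 and -0.14 except that of Fcgr1, at 1.25.

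Whether the genotype effect differed between the cell types was tested as an interaction. For 6 of the 7 members the effect in T cells minus that in cDC2s was above 0 and past the threshold. Of the 10650 genes tested 5.7% passed it, 5.4% with a positive difference. Among the 6, Fcgr2b, Fcgr4 and Syk passed the T cell filter only through the Cd47ΔT libraries, so this count is a description and no support. With no filter on low values 4 members were called, and Fcgr2b (limma adjusted p = 0.0560) and Fcgr3 (adjusted p = 0.117) were not. Without overlap, Fcgr2b, Fcgr4 and Tyrobp (3 of 7) were higher in Cd47ΔT T cells and lower in Cd47ΔT cDC2s than in their Cd47f/f counterparts. This was true of 4.5% of the 10650 genes tested. The difference was 3.55 ± 0.31 for Fcgr4 (SE; limma adjusted p = 0.000109), 3.42 ± 0.26 for Tyrobp (adjusted p = 6.72e-05) and 3.24 ± 0.36 for Fcer1g (adjusted p = 0.000319), all on the log2(TPM + 1) scale. It was 2.64 ± 0.36 for Syk (SE; limma adjusted p = 0.00140), 2.40 ± 0.50 for Fcgr2b (adjusted p = 0.0135) and 2.17 ± 0.55 for Fcgr3 (adjusted p = 0.0409). Fcgr1 was the exception, with a difference of 0.11 ± 0.43 (SE; 95% interval from -0.83 to 1.04; limma adjusted p = 0.953), so a difference of up to about 1 in either direction is within its interval. The sizes and their order depend on the pseudocount, most for the low genes. With a pseudocount of 0.1 the difference was 4.70 for Fcgr4 and 3.54 for Syk, and with 5 it was 1.99 and 1.44 for them, below the 3.16 of Tyrobp and 2.81 of Fcer1g. The call of Fcgr3 is weak: it held under 5 of 17 alternatives, and without Cd47f/f T cell library 1 its adjusted p was 0.222. The call of Fcgr2b held under 14 of 17 and was lost without Cd47f/f T cell library 1 (adjusted p = 0.0612) or Cd47ΔT T cell library 2 (adjusted p = 0.0868). The kit differed between the cell types and cancels here only as far as it acted alike on both genotypes.

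Levels in T cells are given beside those in cDC2s as a description, because the cell types were prepared with different kits and cell type and kit cannot be told apart. In Cd47f/f mice the T cell mean was 0.492% of the cDC2 mean for Syk, 1.32% for Fcer1g, 3.25% for Tyrobp, 4.31% for Fcgr4 and 4.65% for Fcgr2b. It was 54.0% for Fcgr1 and 55.1% for Fcgr3, the receptors lowest in Cd47f/f cDC2s. In Cd47ΔT mice the same percentages were 6.49% for Syk, 13.7% for Fcer1g, 37.0% for Fcgr2b, 37.6% for Tyrobp, 89.0% for Fcgr1, 127% for Fcgr4 and 334% for Fcgr3. For Tyrobp, Fcer1g, Syk and Fcgr2b the order of the groups, from the highest mean, was Cd47f/f cDC2s, Cd47ΔT cDC2s, Cd47ΔT T cells and Cd47f/f T cells, and only the cDC2 groups of Fcer1g and Syk overlapped. For Fcgr4 the order was Cd47f/f cDC2s, Cd47ΔT T cells, Cd47ΔT cDC2s and Cd47f/f T cells, and the values of the second and the third overlapped. For Fcgr3 it was Cd47ΔT T cells, Cd47f/f cDC2s, Cd47ΔT cDC2s and Cd47f/f T cells, where neighbours among the last 3 overlapped. For Fcgr1 it was Cd47ΔT cDC2s, Cd47ΔT T cells, Cd47f/f cDC2s and Cd47f/f T cells, where the first and the second overlapped.

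Among the 4 IgG receptor transcripts the inhibitory one was the larger part in every cDC2 library and the smaller part in every T cell library. TPM are per length, so these genes can be summed and compared. In cDC2s Fcgr2b made up 54.5% to 61.1% of their sum in Cd47ΔT mice and 55.6% to 57.8% in Cd47f/f mice. In T cells it made up 19.2% and 22.3% in Cd47ΔT mice, against 9.02% and 28.5% in Cd47f/f mice. Activating receptors summed over Fcgr2b gave ratios of 4.22 and 3.48 in Cd47ΔT T cells, against 10.1 and 2.51 in Cd47f/f T cells. The Cd47f/f libraries lay on both sides of the Cd47ΔT libraries (log2 difference -0.39 ± 1.01, SE; exact permutation p = 1, two-sided, with 0.333 the smallest p that 2 against 2 allows). Without Cd47f/f library 1, in which Fcgr2b was at 0.37 TPM, the log2 difference was 0.61. In cDC2s the ratios were 0.636, 0.836 and 0.651 in Cd47ΔT mice, against 0.729, 0.799 and 0.757 in Cd47f/f mice (log2 difference -0.12 ± 0.13, SE; exact permutation p = 0.4, two-sided, smallest possible 0.1).

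Shares of single activating receptors lay apart by genotype in several cases. Fcgr4 made up 28.7% and 21.2% of the receptor sum in Cd47ΔT T cells, against 11.5% and 9.46% in Cd47f/f T cells. In cDC2s it made up 16.9% to 20.9% in Cd47ΔT mice and 24.0% to 34.5% in Cd47f/f mice, so the groups were apart in both cell types and in opposite directions. Fcgr3 made up 45.5% and 50.4% of the sum in Cd47ΔT T cells, against 72.7% and 59.4% in Cd47f/f T cells. Fcgr1 made up 5.53% to 9.02% of it in Cd47ΔT cDC2s, against 0.705% to 1.08% in Cd47f/f cDC2s. These shares were not tested. Fcer1g over Tyrobp was 0.5002 and 0.507 in Cd47ΔT T cells, against 0.428 and 0.632 in Cd47f/f T cells, and 1.30 to 1.46 in Cd47ΔT cDC2s, against 1.17 to 1.49 in Cd47f/f cDC2s. The adaptors thus stood in the reverse order in the cell types, with Tyrobp above Fcer1g in every T cell library and below it in every cDC2 library.

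**Figure D4:**
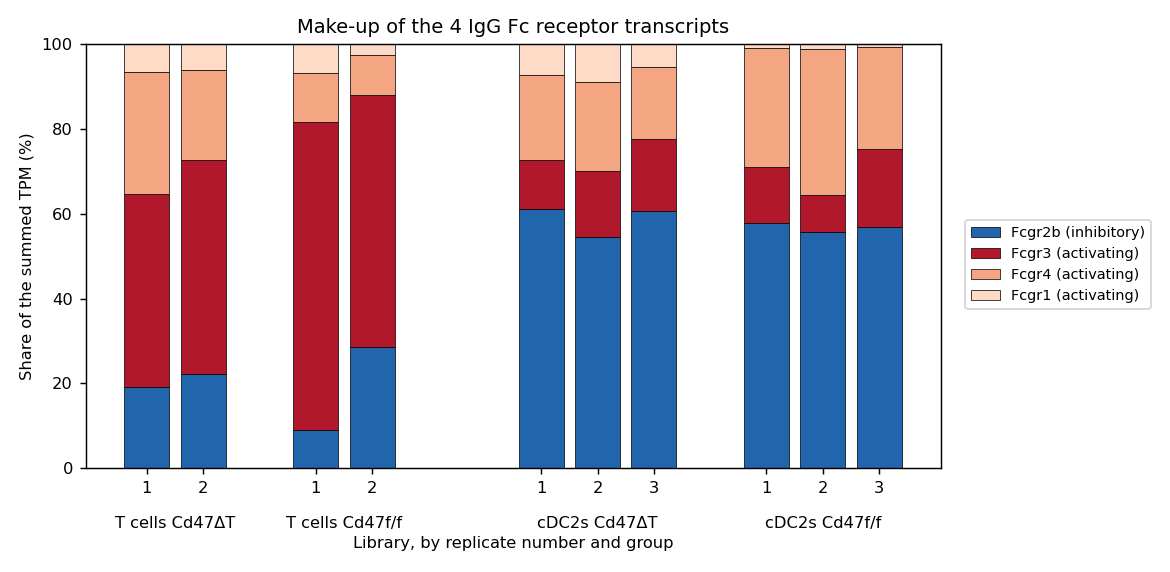
Share of the summed TPM of Fcgr1, Fcgr2b, Fcgr3 and Fcgr4 taken by each gene in each library, by cell type and genotype. Fcgr2b takes over 54% in every cDC2 library and under 29% in every T cell library, and Fcgr1 is thicker in Cd47ΔT than in Cd47f/f cDC2s.

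The split between Fcgr2b and Fcgr3 is uncertain, because their transcripts share sequence. Of the 50-base windows of annotated Fcgr3 transcripts, 9.58% were also in Fcgr2b transcripts, and 2.92% of the Fcgr2b windows were also in Fcgr3. No other pair of members shared such a window. The antisense gene Gm38204 overlaps Fcgr2b at 0 to 0.19 TPM, and the small nuclear RNA gene Gm26110 overlaps Fcgr4 at 0 to 43.5 TPM. Fcgr2b, Fcgr3, Fcgr4 and Fcer1g lie on chromosome 1 (between 170958617 and 171234365 in GRCm38), Fcgr1 on chromosome 3 (96282909 to 96293969), Tyrobp on chromosome 7 (30413760 to 30417585) and Syk on chromosome 13 (52583173 to 52648792). Of 43 protein-coding neighbours within 100 kb, 26 were tested in T cells and 1 was called higher, Fcrla, beside 8.5% of all genes tested. Hcst, which encodes the adaptor DAP10 and lies 127 bases from Tyrobp, had a log2 fold change of 0.18 (limma adjusted p = 0.564) in T cells. In cDC2s none of 26 tested neighbours was called, beside 0.63% of all genes tested. Hist2h3b (log2 fold change 0.42, adjusted p = 0.120) and Atf6 (-0.47, adjusted p = 0.128) had the smallest p in limma.

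The lists of pathway genes are described by counts, to be read beside the 8.5% of all genes tested that were called higher in T cells. Of 29 genes listed as receptors that pair with FCER1G or TYROBP, 20 were tested in T cells. The list is broad and holds some, such as Clec9a, that are not known to need these adaptors. Of the 20 tested, 17 (85%) were called higher and none lower, with a median log2 fold change of 1.76. As with the members, 15 of these 17 passed the filter only through the Cd47ΔT libraries, so the count is a description. Treml4, a TREM-family receptor of myeloid cells, averaged 13.01 ± 2.80 TPM in Cd47ΔT T cells and 1.32 ± 0.127 TPM in Cd47f/f T cells (SD, n = 2 each). Pilrb1, an activating paired receptor, averaged 6.78 ± 1.98 TPM in Cd47ΔT T cells and 0.385 ± 0.163 TPM in Cd47f/f T cells (SD, n = 2 each). Klra8, the NK receptor Ly49H, averaged 17.6 ± 5.76 TPM in Cd47ΔT T cells and 1.26 ± 0.820 TPM in Cd47f/f T cells (SD, n = 2 each). Ncr1, the NK receptor NKp46, averaged 21.4 ± 11.9 TPM in Cd47ΔT T cells and 0.945 ± 0.785 TPM in Cd47f/f T cells (SD, n = 2 each). Their limma adjusted p ran from 0.00455 (Treml4) to 0.0105 (Ncr1). Treml4, Klra8 and Ncr1 also stand in the monocyte and NK cell marker lists. Without Cd47f/f library 1 the count for this list was 5.

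Of 13 other Fc receptors and Fc receptor-like genes 8 were tested in T cells and 5 (62.5%) were called higher, 4 of which passed the filter only through the Cd47ΔT libraries. The median log2 fold change over the 8 was 1.48. Named by the smallest p were Fcmr, the IgM receptor (log2 fold change 2.68 ± 0.50, SE; limma adjusted p = 0.0271), and Fcrl1, a B cell receptor (1.34 ± 0.26). Fcer1a, the IgE-binding chain of the high-affinity IgE receptor, had a log2 fold change of 1.62 ± 0.32 (SE), and Fcrla, a B cell protein, one of 2.22 ± 0.47 (SE). Fcer1a and Fcrla are also in the basophil and B cell marker lists. Without Cd47f/f library 1 none of this list was called, and without Cd47f/f library 2 the count was 1.

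Among the other ITAM or related adaptor chains, 2 of 7 tested (28.6%) were called higher in T cells, and both are chains of the B cell receptor. Of these, 1 passed the filter only through the Cd47ΔT libraries. Cd79b averaged 42.5 ± 12.3 TPM in Cd47ΔT T cells and 12.9 ± 0 TPM in Cd47f/f T cells (SD, n = 2 each). Cd79a averaged 24.1 ± 19.3 TPM in Cd47ΔT T cells and 1.5 ± 0.750 TPM in Cd47f/f T cells (SD, n = 2 each). Cd79a and Cd79b are also in the B cell marker list. The list's median was 0.18, near the 0.10 of all genes, and it holds the CD3 chains of the T cell receptor. Without Cd47f/f library 1 none was called, and without Cd47f/f library 2 the count was 1.

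Of 37 tested kinases and adaptors downstream of ITAMs, 9 (24.3%) were called higher in T cells and none lower, with a median of 0.16, and 3 of the 9 passed the filter only through the Cd47ΔT libraries. Lyn, a Src-family kinase that phosphorylates ITAMs and ITIMs in myeloid and B cells, had a log2 fold change of 2.52 ± 0.33 (SE; limma adjusted p = 0.0106). Fgr, another myeloid Src-family kinase, had one of 1.86 ± 0.25 (SE), Lat2, an adaptor of myeloid and B cells, one of 1.92 ± 0.30 (SE), and Blnk, the B cell linker that SYK phosphorylates, one of 1.81 ± 0.30 (SE). Of 29 tested ITIM receptors and inhibitory phosphatases 13 (44.8%) were called higher and none lower, with a median of 0.59, and 10 of the 13 passed the filter only through the Cd47ΔT libraries. They included Sirpa, the receptor for CD47, which averaged 21.9 ± 9.03 TPM in Cd47ΔT T cells and 2.35 ± 0.615 TPM in Cd47f/f T cells (SD, n = 2 each; limma adjusted p = 0.00804). Sirpa is also a defining gene of the cDC2 marker list. Pilra, an inhibitory paired receptor, had a log2 fold change of 2.37 ± 0.25 (SE), Clec12a, an inhibitory lectin receptor, one of 2.15 ± 0.30 (SE), and Pirb, which binds MHC class I, one of 2.18 ± 0.31 (SE). Without Cd47f/f library 1 the counts were 4 for the kinases and 3 for the ITIM list.

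Of 20 phagocytic and oxidase genes 4 (20%) were called higher in T cells, with a median of 0.19, and all 4 passed the filter through the Cd47f/f libraries as well. Cybb, which encodes the catalytic subunit of the phagocyte NADPH oxidase, had a log2 fold change of 2.53 ± 0.34 (SE; limma adjusted p = 0.0116). Ncf4, another subunit gene, averaged 98.3 ± 4.55 TPM in Cd47ΔT T cells and 64.5 ± 4.17 TPM in Cd47f/f T cells (SD, n = 2 each; limma adjusted p = 0.0333). Itgam, the integrin chain CD11b, averaged 6.70 ± 2.87 TPM in Cd47ΔT T cells and 1.66 ± 0.559 TPM in Cd47f/f T cells (SD, n = 2 each; limma adjusted p = 0.0408). Itgam too is a defining gene of the cDC2 marker list. With Cd47ΔT library 2 left out the count was 2, and with no filter on low values the count was 0 for each of these lists in T cells.

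In cDC2s only 2 genes of these lists were called, both lower in Cd47ΔT. Of all genes tested there 0.63% were called, 0.381% lower. Itgam averaged 21.5 ± 3.26 TPM in Cd47ΔT cDC2s and 72.9 ± 6.22 TPM in Cd47f/f cDC2s (SD, n = 3 each), a log2 fold change of -1.72 ± 0.14 (SE; limma adjusted p = 0.0120). Sirpb1b, an activating SIRP that pairs with TYROBP, averaged 16.4 ± 1.61 TPM in Cd47ΔT cDC2s and 37.8 ± 3.31 TPM in Cd47f/f cDC2s (SD, n = 3 each), a log2 fold change of -1.16 ± 0.14 (SE; limma adjusted p = 0.0200). The Sirpb1b call was lost with any 1 library left out, with no filter and with no variance trend. That of Itgam was lost without Cd47ΔT library 1, Cd47ΔT library 3 or Cd47f/f library 1. Both calls were lost with the replicate number as a block. Sirpb1b belongs to a family of close copies, so its value is uncertain. The median log2 fold change in cDC2s was -0.60 over 3 tested other Fc receptors and -0.15 over 17 tested genes of the adaptor-pairing list. It was -0.17 over 20 phagocytic genes, beside -0.073 over all genes tested. It was -0.11 over 30 tested ITIM genes, -0.086 over 31 tested kinases and adaptors and 0.045 over 3 tested adaptor chains.

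Other genes of these lists, named by the smallest p in cDC2s, did not pass the test. Fcgrt, the neonatal Fc receptor that recycles IgG, averaged 20.2 ± 2.20 TPM in Cd47ΔT cDC2s and 34.6 ± 1.68 TPM in Cd47f/f cDC2s (SD, n = 3 each; limma adjusted p = 0.0637). Inpp5d, which encodes the phosphatase SHIP1 that FcγRIIB recruits, averaged 191 ± 11.8 TPM in Cd47ΔT cDC2s and 249 ± 17.3 TPM in Cd47f/f cDC2s (SD, n = 3 each; limma adjusted p = 0.134). Cd22, an ITIM receptor of B cells, averaged 111 ± 26.8 TPM in Cd47ΔT cDC2s and 211 ± 29.5 TPM in Cd47f/f cDC2s (SD, n = 3 each; limma adjusted p = 0.0916). The Src-family kinase gene Fyn had a log2 fold change of 0.52 ± 0.15 (SE; limma adjusted p = 0.173), and Ptk2b, which encodes the kinase PYK2, one of -0.37 ± 0.097 (SE; adjusted p = 0.149). Fcrl1 (-0.60 ± 0.17), Cd79b (-0.39 ± 0.22) and Hcst (0.34 ± 0.29, SE) had adjusted p of 0.192, 0.506 and 0.671 in limma.

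For each member the genes with the most similar profile over the 10 libraries were found among 9775 protein-coding genes whose mean reached 5 TPM in either cell type. Likeness was the root mean square difference of log2(TPM + 1) profiles, each centred on its own mean, so a smaller value means a closer profile. Syk had the closest match, Napsa at 0.12, followed by Pld4 at 0.17. Tyrobp was closest to Ear2 (0.26) and Apoe (0.32), and Fcer1g to Ly86 (0.29) and Lrrc25 (0.31). Fcgr4 was closest to Spic (0.26), which encodes a factor of red pulp macrophages, and to Clec4a3 (0.29). Fcgr2b was closest to Ifitm1 (0.27) and Lat2 (0.29), and Fcgr3 to Irf8 (0.34) and Gmppb (0.37). Fcgr1, itself under 5 TPM, was closest to Tbx21 (0.29) and Pidd1 (0.35). These libraries share cell type, kit and genotype, so the likeness is a description.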

How the data were processed

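RNA of spleen T cells (2 libraries per genotype) and cDC2s (3 per genotype) was sequenced, with an RNeasy mini and a TruSeq stranded mRNA kit for T cells and an RNeasy micro and a SMART-seq stranded kit for cDC2s, per the labels' protocols. The authors deposited TPM for 45706 genes in 10 libraries. STAR, RSEM, DESeq2 and GRCm38 are named in the submitters' processing notes without versions. The annotation release and strand setting are not stated in the sources used here. TPM keep no depth, so no counting error is given. Symbols came from GENCODE M21 for 45143 identifiers (98.8%).

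The filter kept genes that reached 1 TPM in at least 2 T cell or 3 cDC2 libraries. They were tested on log2(TPM + 1) with limma 3.58.1 (lmFit, eBayes with a variance trend, R 4.3.3), with a single genotype term. Benjamini-Hochberg adjustment ran over all genes tested, and calls were made under 0.05. The difference between cell types was an interaction over genes passing both filters. Receptor ratios had an exact permutation test. The test steps were checked on simulated data. ITAM and ITIM patterns were searched in coding DNA of each member's 201 transcript. Each ITAM part was tyrosine, 2 of any, then leucine or isoleucine, with 6 to 12 between the parts. The ITIM was isoleucine, valine, leucine or serine, 1 of any, tyrosine, 2 of any, then isoleucine, leucine or valine.

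Members and lists were chosen with earlier results of these data known. Named were all members and Cd47, and per list up to 4 called genes with the smallest p, or otherwise up to 2, plus the 2 genes most like each member. Alternatives were pseudocounts of 0.1 and 5, no filter, 2 scalings, no variance trend, the replicate number as a block, 1 fit of all libraries and leaving out each library. Where leaving out a library leaves 1 in a group of T cells, that lone library is taken to vary as the other genotype does. Python 3.11.15, pandas 2.3.3, numpy 2.4.6, scipy 1.17.1 and matplotlib 3.10.9 were used. Of the ITIM list 2 symbols did not match and 32 did. Some results that this rule names are not reported here.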

Additional observations from a re-analysis of the deposited data

Results flagged for a closer look

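For 6 of the 7 genes the genotype effect in T cells differed from that in cDC2s by the interaction test, beside 5.7% of all genes tested. Among the 6, Fcgr2b, Fcgr4 and Syk passed the T cell filter only through the Cd47ΔT libraries, so the count is a description. The effect in T cells minus that in cDC2s, on the log2 scale, was 3.55 for Fcgr4, 3.42 for Tyrobp, 3.24 for Fcer1g, 2.64 for Syk, 2.40 for Fcgr2b and 2.17 for Fcgr3. In T cells all 6 were higher in every Cd47ΔT library than in every Cd47f/f library, which was also true of 37% of all genes tested. In cDC2s Fcgr4, Fcgr2b and Tyrobp were lower in every Cd47ΔT library than in every Cd47f/f library, and Fcgr3, Fcer1g and Syk overlapped. Of all genes tested in cDC2s 13.5% were lower without overlap. No group had 4 or more libraries, so no single library was tested for standing apart within its group.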

How the results depend on the processing

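In T cells 1167 genes were called, against 15 with no filter on low values, 2296 with the replicate block and 725 to 1568 with each library left out. The members called were 6, against 0 with no filter and 3 to 7 with each library left out. Fcgr4, Fcer1g and Tyrobp kept their call under 11 of 12 alternatives, Syk under 10, Fcgr1 and Fcgr3 under 9, and Fcgr2b was called under 4. In cDC2s 76 genes were called, against 6 with no filter, 12 with no variance trend, 4 with the replicate block, 171 with 1 fit of all libraries and 0 to 14 with each library left out. The members called there were 0, against 2 with 1 fit of all libraries and 0 to 0 with each library left out. The interaction called 607 genes, against 949 with no filter and 302 to 607 with each library left out, and 6 members, against 4 to 6. Fcgr4, Fcer1g, Tyrobp and Syk passed it under 17 of 17 alternatives, Fcgr2b under 14 and Fcgr3 under 5.

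These values changed sign. Cd47 in cDC2s was 0.078 with median-of-ratios scaling, 0.065 with protein-coding scaling and -0.054 to 0.062 with each library left out. Fcgr3 in cDC2s ran from -0.64 to 0.0086 with each library left out. The Fcgr1 difference between cell types was -0.072 with median-of-ratios and -0.050 with protein-coding scaling, and -0.12 to 0.33 with each library left out. The log2 ratio of activating receptors to Fcgr2b ran from -1.40 to 0.61 in T cells and from -0.24 to -0.044 in cDC2s with each library left out, and with Fcgr3 alone it was 0.13 in cDC2s (exact permutation p = 0.7). The cause was not tested.

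Median-of-ratios scaling moved the median of all genes in T cells to -0.041, from 0.10, with 946 called higher and 264 lower, against 1058 and 109. For the difference it moved the median to -0.026, from 0.19, with 417 called above 0 and 77 below, against 575 and 32. In cDC2s 40 were called higher and 35 lower with it, and 35 and 31 with protein-coding scaling, against 30 and 46. Whether the replicate numbers pair the libraries is not known. The deviations of libraries with the same number had r of 0.19 in T cells, where 2 libraries per genotype cannot show pairing or its absence. In cDC2s r was -0.044, 0.059 and 0.12 for the same number, against -0.14 to 0.12 for unlike numbers. The calls of Itgam and Sirpb1b in cDC2s were lost with the replicate block. The differences of the log2 ratios are the same with the block by design (exact p = 1 in T cells and 0.5 in cDC2s).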
